A study of Mus musculus with 24 samples.

Results

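The genes described here are 10 members of the NRF2 antioxidant response, taken from the deposited table of counts by their symbols: Hmox1, Nqo1, Slc7a11, Gclc, Gclm, Gsr, Txnrd1, Srxn1, Nfe2l2 and Keap1. They are 10 of the 39253 genes listed, and all 10 were among the 13901 genes that passed the filter on low counts. RNA-seq was conducted on wild-type Neuro2A cells, which derive from a mouse neuroblastoma, with 24 samples in 8 groups of 3 independent biological replicates. In 6 groups, cells were transiently transfected with a plasmid encoding RfxCas13d, a high-fidelity variant of it (HiFi-RfxCas13d) or DiCas7-11, paired with a crRNA to mATXN2 or a non-targeting (NTG) crRNA, and harvested 48 hr later. RfxCas13d and DiCas7-11 are RNA-guided ribonucleases, and mATXN2 is the mouse ataxin-2 mRNA. The remaining groups were untransfected cells, the negative control, and, as the positive control, cells that received an ataxin-2 antisense oligonucleotide (ASO). All 24 samples come from 1 cell line, no selection of transfected cells is described, and there was no group given the transfection reagent alone, so that reagent, plasmid and effector cannot be told apart in a comparison with untransfected cells. No group received a control oligonucleotide, and how the ASO was delivered is not described. Its delivery, the oligonucleotide itself and the loss of ataxin-2 thus cannot be told apart. The deposited column names call the arms EV and G12 where the labels give NTG and mATXN2, and what EV stands for is not stated. The arms are named here after the labels.

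NRF2, encoded by Nfe2l2, is a transcription factor that switches on genes against oxidative and electrophilic damage. In resting cells, KEAP1 binds NRF2 and directs it to degradation through a CUL3 ubiquitin ligase. When KEAP1 is modified by electrophiles, or is drawn away by the autophagy receptor p62 (Sqstm1), NRF2 accumulates, pairs with a small MAF protein and binds antioxidant response elements (AREs). NRF2 is thus controlled largely at the protein, which RNA-seq does not measure. Some of its targets answer to other factors as well: Slc7a11 is also a target of ATF4, the factor of the integrated stress response, and Hmox1 is repressed by BACH1 and induced by heme.

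The promoter letters around such elements are shown to make clear what a factor could read at these genes. RefSeq promoter windows of GRCm38.p6, another build than the GRCm39 used for the counts, were found for 7 of the 10 members, with 9 start sites, and the 250 bases before each start were searched on both strands. The ARE core was written as TGACNNNGC, present in 10.2% of 32851 such windows of all genes, and its second form as TGAGNNNGC, present in 14.4%. The ATF4 element was written as TGATGNAA, present in 3.45%. Capitals mark each match below.
Slc7a11 promoter, chr3:50443633-50443730, minus strand: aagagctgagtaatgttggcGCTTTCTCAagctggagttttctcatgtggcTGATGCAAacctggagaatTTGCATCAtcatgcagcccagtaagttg
Gclm promoter, chr3:122245403-122245451, plus strand: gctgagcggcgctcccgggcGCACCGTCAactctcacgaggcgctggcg
Srxn1 promoter, chr2:152105346-152105507, plus strand: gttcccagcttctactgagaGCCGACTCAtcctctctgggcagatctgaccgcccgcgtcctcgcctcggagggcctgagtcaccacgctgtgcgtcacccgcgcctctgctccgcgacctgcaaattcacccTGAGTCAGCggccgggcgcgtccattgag
Txnrd1 promoter, chr10:82859094-82859142, plus strand: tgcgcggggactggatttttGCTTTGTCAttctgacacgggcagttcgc
Nfe2l2 promoter, chr2:75704875-75704913, minus strand: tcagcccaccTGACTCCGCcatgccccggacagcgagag

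The Slc7a11 window held a second-form ARE match 97 bases before the start and a pair of ATF4 elements 66 and 47 bases before it, on opposite strands. Srxn1 held 2 second-form matches, 158 and 45 bases before its start, and the nearer one opens with the letters of an AP-1 site, TGAGTCA. Core matches stood 134 bases before the start of Gclm, 92 bases before one of 3 starts of Txnrd1 and 240 bases before that of Nfe2l2. No match was found in the windows of Nqo1 and Keap1, and Hmox1, Gclc and Gsr have no window in the table. A match is a description of letters and not of binding, which was not measured.

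Total counts ranged from 12665725 to 22504999, with the highest totals in the ASO samples (21874644 and above, against at most 19857305 elsewhere). The members had mean counts per sample between 224 (Nqo1) and 5055 (Txnrd1). Levels are given in CPM (counts divided by library size), scaled by the TMM method, and are compared between groups and not between genes. Differences are log2 fold changes with their standard errors (SE), tested in edgeR by quasi-likelihood over the 8 groups together and adjusted by the Benjamini-Hochberg method over all 13901 genes. A gene is said to rise or fall where its adjusted p was under 0.05. Replicates differed by 1.68 to 5.58 times counting noise in chi-square per degree of freedom, with the 3 highest values, 3.33 to 5.58, among the NTG samples of DiCas7-11. Of 10 neuroblast markers, 9 passed the filter, with a summed level of 1083 to 1151 CPM per sample. The summed markers of leukocytes (at most 2.42 CPM), fibroblasts (at most 8.45), astrocytes (at most 0.576) and endothelium (at most 10.0) were low in every sample. The summed leukocyte markers were nevertheless higher in the ASO samples, at 1.07 to 2.42 CPM, than in every other sample, at 0.0639 to 0.827 CPM. Of the 4 leukocyte markers only Cd68 passed the filter, 1 was at 0 in all ASO samples, and Ptprc, the pan-leukocyte marker CD45, was at most 0.0689 CPM in any sample. The summed fibroblast markers were at 8.03 to 8.45 CPM in untransfected cells, 5.17 to 8.22 CPM in transfected cells and 5.44 to 6.18 CPM with the ASO. The part of the leukocyte and fibroblast markers in the ASO results and in the other comparisons with untransfected cells was not tested. Atxn2, the target, was at 52.0 ± 2.77 CPM (SD, n = 3) with the ASO against 123 ± 1.78 in untransfected cells, and fell in the mATXN2 arm of HiFi-RfxCas13d (log2 fold change -0.23, adjusted p = 0.00157) and DiCas7-11 (-0.20, adjusted p = 0.00557), but not past the threshold with RfxCas13d (-0.10, adjusted p = 0.178), although its 3 mATXN2 samples lay below its 3 NTG samples. Between these arms of RfxCas13d 20.2% of all genes did not overlap, 9.92% with every mATXN2 sample lower.

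**Figure D1:**
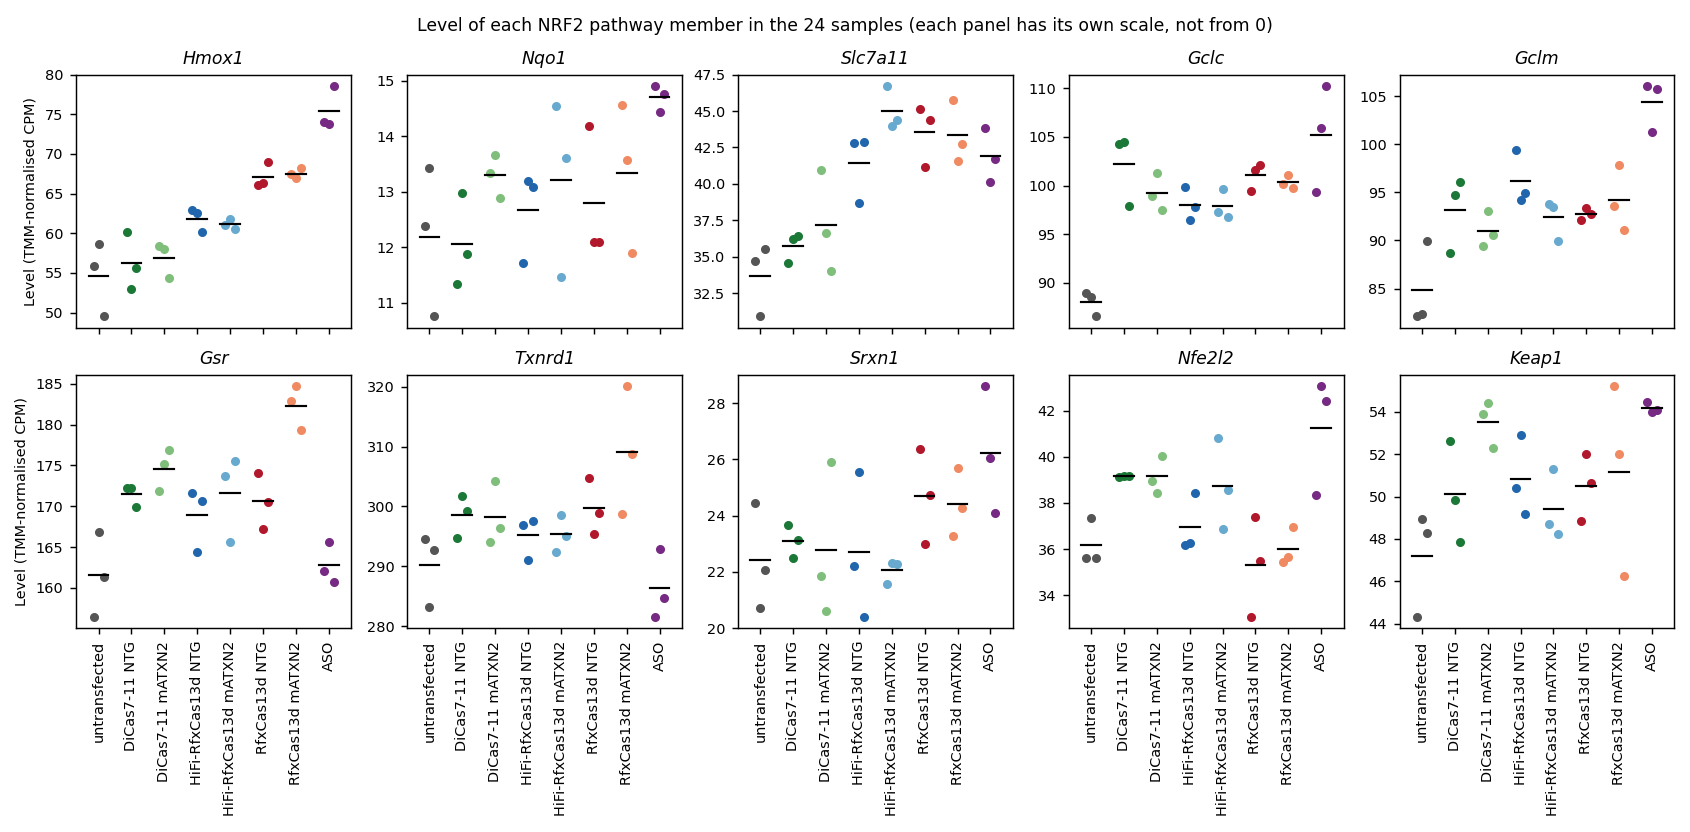
Level of each of the 10 members in the 24 samples, in TMM-normalised CPM on the vertical axis of each panel, with the 8 groups on the horizontal axis. Points are samples and bars are means of 3; Hmox1 goes from a mean of 54.7 CPM in untransfected cells to 75.5 CPM with the ASO, Slc7a11 is lowest in untransfected cells and both DiCas7-11 groups, and Gclc is lowest in untransfected cells.

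Whether targeting ataxin-2 altered the antioxidant genes was asked by comparing the mATXN2 arm with the NTG arm of each effector. Between these arms mean Atxn2 went from 122 to 114 CPM with RfxCas13d, 119 to 101 CPM with HiFi-RfxCas13d and 118 to 103 CPM with DiCas7-11. With the ASO it was at 52.0 CPM, so these comparisons cover only small losses of Atxn2 RNA. None of the 10 members passed the test for RfxCas13d, HiFi-RfxCas13d or DiCas7-11 (0 of 10 for each), against 1.39%, 0.295% and 0.942% of all tested genes. At an unadjusted p under 0.05, edgeR gave 1 member for RfxCas13d and 0 for each of the other effectors. DESeq2 called 0 members for each effector, and limma-trend, adjusted over 10 comparisons together, called 1 for RfxCas13d and 0 for the others. The median log2 fold change of the members was 0.02 for RfxCas13d, 0.01 for DiCas7-11 and within 0.01 of 0 for HiFi-RfxCas13d, and the medians over all genes were within 0.01 of 0.

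The gene behind the single unadjusted call was Gsr, glutathione reductase, which returns oxidised glutathione to its reduced form with NADPH. With RfxCas13d its level was 183, 185 and 179 CPM in the mATXN2 samples and 174, 167 and 171 CPM in the NTG samples. The arms did not overlap, as held for 20.2% of all genes, 10.3% with every mATXN2 sample higher. The log2 fold change was 0.10 ± 0.03 (SE), with an adjusted p of 0.0925. The corresponding values were 0.02 for HiFi-RfxCas13d (adjusted p = 0.918) and 0.03 for DiCas7-11 (adjusted p = 0.764), and the difference between RfxCas13d and either of them did not pass the test (adjusted p = 0.829 and 0.724). Hmox1, heme oxygenase 1, which opens the heme ring to release biliverdin, iron and carbon monoxide, shows how narrow the intervals were: its mATXN2 arm differed from NTG by 0.01 for RfxCas13d (95% interval -0.09 to 0.11), by -0.02 for HiFi-RfxCas13d (-0.12 to 0.08) and by 0.02 for DiCas7-11 (-0.08 to 0.12). The largest difference of any member was in Nqo1, NAD(P)H quinone dehydrogenase, with DiCas7-11, at 0.14 with an interval of -0.06 to 0.33. Slc7a11, the cystine importer, was higher in each mATXN2 sample of HiFi-RfxCas13d (46.7, 44.0 and 44.4 CPM) than in its NTG samples (42.8, 38.7 and 42.9 CPM), by 0.12 on the log2 scale, and this did not pass the test (adjusted p = 0.697). No member differed in its mATXN2 response between any pair of effectors by edgeR, DESeq2 or limma-trend, none had an unadjusted p under 0.05 in these 3 tests, and 0% of all genes were called in each of them.

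Among 43 further genes of the pathway, taken from a list of 44 in 6 roles, 3 rose in the mATXN2 arm of RfxCas13d, while 0.914% of all genes rose. None changed for HiFi-RfxCas13d or DiCas7-11, where 0.295% and 0.942% of all genes were called. Those that rose with RfxCas13d were Txnip, which binds and inhibits thioredoxin (0.25 ± 0.06, adjusted p = 0.0279), and the ferritin subunits Ftl1 (0.13 ± 0.03, adjusted p = 0.0172) and Fth1 (0.08 ± 0.02, adjusted p = 0.0439), which store iron. Txnip was at a mean of 40.5 CPM with mATXN2, 33.9 CPM with NTG and 41.9 CPM in untransfected cells. Ferritin genes have processed copies elsewhere in the genome whose reads could be divided among them.

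**Figure D2:**
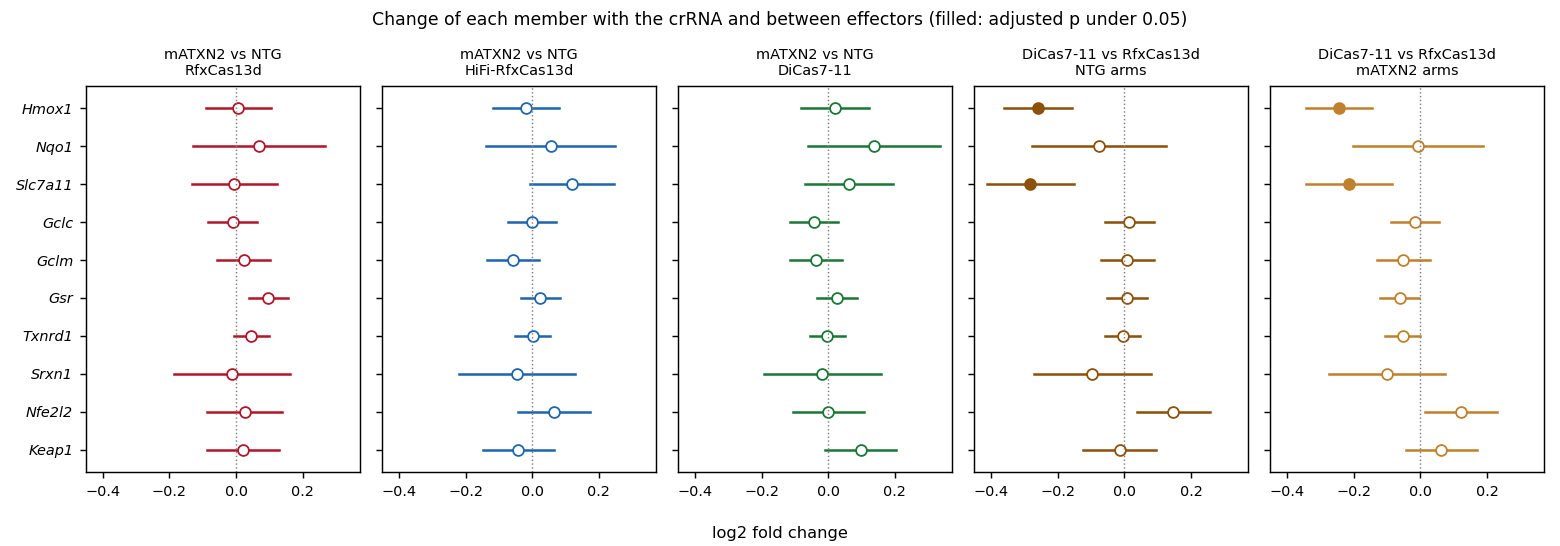
log2 fold change of each member (horizontal axis) with its 95% interval, for mATXN2 against NTG with each effector and for DiCas7-11 against RfxCas13d within the NTG and the mATXN2 arms. Points are filled where the adjusted p was under 0.05: none is filled in the crRNA panels, and those filled in both effector panels are Hmox1 and Slc7a11 in both effector panels, on the side of lower levels with DiCas7-11.

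The levels in transfected cells were then set against untransfected cells. Because all 7 such comparisons, the ASO included, use the same 3 untransfected samples, their values are given side by side and their likeness is not read as a result. With the NTG crRNA, 4 members rose with RfxCas13d (5.6% of all genes rose and 5.66% fell), 4 with HiFi-RfxCas13d (10.3% rose and 10.6% fell) and 3 with DiCas7-11 (11.1% rose and 10.8% fell). With the mATXN2 crRNA, 6 rose with RfxCas13d (5.98% of all genes rose and 6.03% fell), 5 with HiFi-RfxCas13d (11.3% and 10.9%) and 3 with DiCas7-11 (12.5% and 12.8%). With the ASO, 8 rose, while 21% of all genes rose and 21.7% fell. No member fell against untransfected cells in any of the 7 comparisons. Samples of a transfected group did not overlap the untransfected samples for 28.5% to 38.9% of all genes. With the ASO this share was 51.8%. Median log2 fold changes of the members were 0.12, 0.09 and 0.09 for the NTG arms of RfxCas13d, HiFi-RfxCas13d and DiCas7-11, 0.14, 0.10 and 0.11 for their mATXN2 arms, and 0.24 for the ASO, with medians over all genes within 0.01 of 0. RNA was taken from all cells of a sample, so that more RNA per cell and more cells carrying that RNA cannot be told apart.

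**Figure D3:**
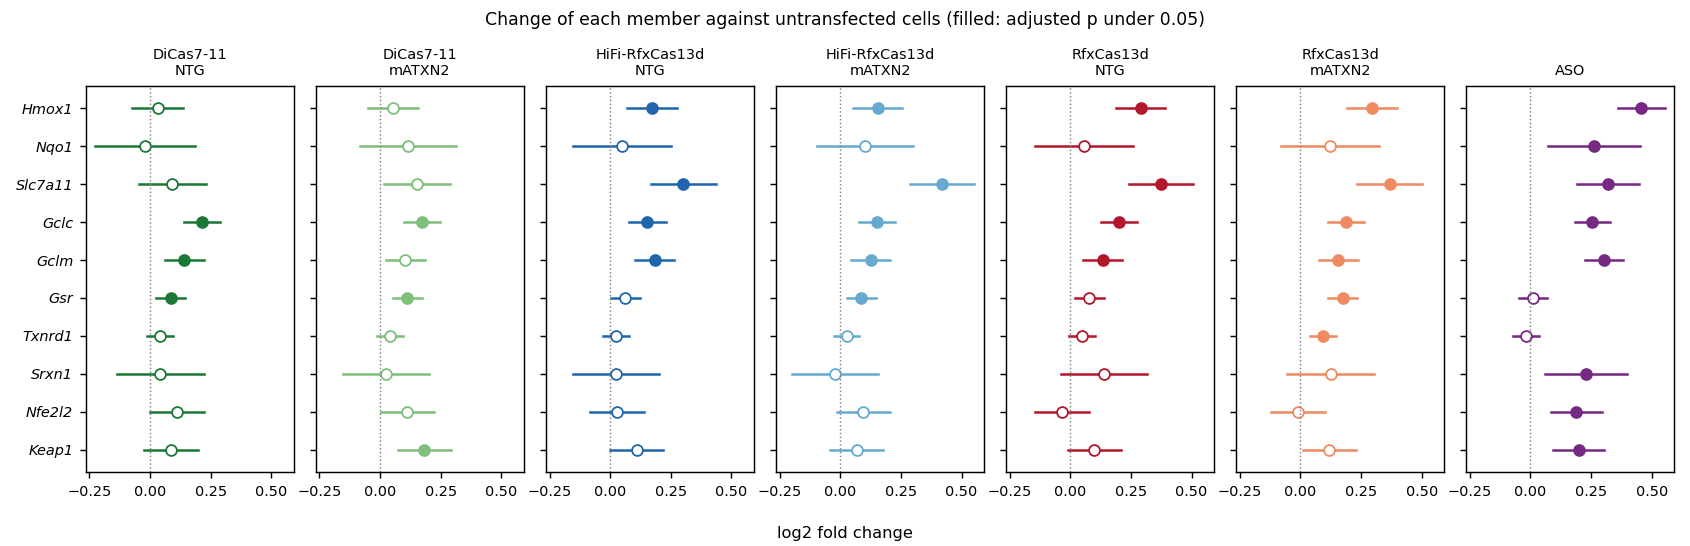
log2 fold change of each member against untransfected cells (horizontal axis) with its 95% interval, in a panel for each of the other 7 groups. Points are filled where the adjusted p was under 0.05: Gclc is filled in all 7 panels, Hmox1 and Slc7a11 in the 4 RfxCas13d and HiFi-RfxCas13d panels and with the ASO, and Nqo1, Srxn1 and Nfe2l2 with the ASO alone.

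Hmox1 had the widest range over the groups, 0.47 on the log2 scale between the lowest and the highest group. Its level was 55.9, 58.6 and 49.5 CPM in untransfected cells. It was 66.1, 66.3 and 68.9 CPM with RfxCas13d and NTG, and 67.4, 66.9 and 68.2 CPM with RfxCas13d and mATXN2, above each untransfected sample. HiFi-RfxCas13d gave 62.9, 62.6 and 60.1 CPM with NTG and 61.0, 61.8 and 60.6 CPM with mATXN2, between the RfxCas13d and the untransfected samples and overlapping neither. DiCas7-11 gave 60.2, 53.0 and 55.7 CPM with NTG and 58.4, 58.0 and 54.4 CPM with mATXN2, within or just above the span of untransfected cells, and the ASO gave 74.0, 73.8 and 78.6 CPM, above all other samples.

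Against untransfected cells, Hmox1 rose by 0.29 ± 0.05 (adjusted p = 1.95e-04) with RfxCas13d and NTG and by 0.30 ± 0.05 (adjusted p = 1.46e-04) with mATXN2. The rises with HiFi-RfxCas13d were 0.17 ± 0.05 (adjusted p = 0.0144) and 0.15 ± 0.05 (adjusted p = 0.0254). Both rest on single libraries: without untransfected replicate 3, the lowest of all 24, the adjusted p was 0.122 for NTG and 0.190 for mATXN2, and it was 0.0502 without NTG replicate 1 of HiFi-RfxCas13d and 0.0754 without its mATXN2 replicate 2. With DiCas7-11 the changes were 0.03 (adjusted p = 0.723, 95% interval -0.07 to 0.14) and 0.05 (adjusted p = 0.495, -0.05 to 0.16). With the ASO, Hmox1 rose by 0.46 ± 0.05 (adjusted p = 6.02e-09), the largest change of a member in that group.

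Slc7a11 encodes the transport subunit of the antiporter that brings in cystine, the raw material for glutathione, in exchange for glutamate. It was at 34.7, 30.9 and 35.5 CPM in untransfected cells. With NTG it was at 45.1, 41.1 and 44.4 CPM for RfxCas13d, at 42.8, 38.7 and 42.9 CPM for HiFi-RfxCas13d and at 34.6, 36.2 and 36.4 CPM for DiCas7-11. With mATXN2 it was at 45.8, 41.6 and 42.8 CPM for RfxCas13d, at 46.7, 44.0 and 44.4 CPM for HiFi-RfxCas13d and at 40.98, 36.6 and 34.0 CPM for DiCas7-11. The RfxCas13d and HiFi-RfxCas13d samples all lay above the untransfected samples, and the DiCas7-11 samples overlapped them.

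Slc7a11 rose against untransfected cells by 0.37 ± 0.07 with RfxCas13d and NTG (adjusted p = 2.38e-04) and by 0.37 ± 0.07 with mATXN2 (adjusted p = 2.84e-04). It rose by 0.30 ± 0.07 with HiFi-RfxCas13d and NTG (adjusted p = 0.00131) and by 0.42 ± 0.06 with mATXN2 (adjusted p = 2.05e-05), the largest change of any member in these 7 comparisons after the Hmox1 change with the ASO. With DiCas7-11 the values were 0.09 (adjusted p = 0.367) and 0.15 (adjusted p = 0.0906). In the ASO samples Slc7a11 was at 43.8, 40.2 and 41.7 CPM, a rise of 0.32 ± 0.06 (adjusted p = 1.42e-04).

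Gclc and Gclm are the catalytic and the modifier subunit of glutamate-cysteine ligase, which sets the rate of glutathione synthesis. Gclc was at 89.0, 88.5 and 86.6 CPM in untransfected cells and at 96.4 CPM or more in each of the other 21 samples. It rose in all 7 groups, by 0.20 ± 0.04 and 0.19 ± 0.04 with RfxCas13d and NTG or mATXN2, by 0.15 ± 0.04 in both arms of HiFi-RfxCas13d, by 0.21 ± 0.04 and 0.17 ± 0.04 with DiCas7-11 and by 0.26 ± 0.03 with the ASO, with adjusted p between 7.68e-07 and 0.00277. The group means of the transfected cells ran from 97.9 to 102 CPM, and the ranges of neighbouring groups in that order overlapped.

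Gclm was at 82.1, 82.3 and 89.99 CPM in untransfected cells, between 88.7 and 99.3 CPM in transfected cells and at 106, 101 and 106 CPM with the ASO. With NTG it rose by 0.13 ± 0.04 for RfxCas13d (adjusted p = 0.0274), 0.18 ± 0.04 for HiFi-RfxCas13d (adjusted p = 0.0011) and 0.14 ± 0.04 for DiCas7-11 (adjusted p = 0.0104). With mATXN2 it rose by 0.16 ± 0.04 for RfxCas13d (adjusted p = 0.00865) and 0.13 ± 0.04 for HiFi-RfxCas13d (adjusted p = 0.0197), and was 0.10 ± 0.04 higher for DiCas7-11, just short of passing the test (adjusted p = 0.0507). With the ASO, Gclm rose by 0.30 ± 0.04 (adjusted p = 1.66e-07). Apart from the ASO and the NTG arm of HiFi-RfxCas13d, these calls were lost when single libraries were left out. For RfxCas13d and NTG, the adjusted p was 0.0519, 0.0714 and 0.0596 without its replicates 1, 2 and 3, and 0.113 and 0.126 without untransfected replicates 1 and 2. For DiCas7-11 and NTG it was 0.0600 without its replicate 3 and 0.0607 and 0.0641 without untransfected replicates 1 and 2. For RfxCas13d and mATXN2 it was 0.0768 without its replicate 2 and 0.0620 and 0.0629 without untransfected replicates 1 and 2. For HiFi-RfxCas13d and mATXN2 it was 0.0617 and 0.0691 without its replicates 1 and 2, and 0.0995 and 0.104 without untransfected replicates 1 and 2.

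Gsr was at 156, 167 and 161 CPM in untransfected cells and at 162, 166 and 161 CPM with the ASO, a change of 0.01 ± 0.03 (adjusted p = 0.792). In transfected cells its group means ran from 169 CPM with HiFi-RfxCas13d and NTG to 182 CPM with RfxCas13d and mATXN2. It rose by 0.17 ± 0.03 with RfxCas13d and mATXN2 (adjusted p = 1.36e-04) and by 0.11 ± 0.03 with DiCas7-11 and mATXN2 (adjusted p = 0.00494), and these calls held without any single library. The smaller rises with HiFi-RfxCas13d and mATXN2 (0.09, adjusted p = 0.0303) and with DiCas7-11 and NTG (0.09, adjusted p = 0.0356) did not. For the former the adjusted p was 0.0846 and 0.131 without its replicates 1 and 3, and 0.161 and 0.0639 without untransfected replicates 1 and 3. For the latter it was 0.0567, 0.0824 and 0.0516 without its replicates 1, 2 and 3, and 0.176 and 0.0713 without untransfected replicates 1 and 3. With NTG, Gsr was 0.08 higher for RfxCas13d (adjusted p = 0.0838) and 0.06 higher for HiFi-RfxCas13d (adjusted p = 0.130).

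Txnrd1 and Srxn1 serve the thioredoxin branch: thioredoxin reductase 1 recharges thioredoxin with NADPH, and sulfiredoxin rescues overoxidised peroxiredoxins. Txnrd1 had the narrowest range over the groups, 0.11 on the log2 scale, from a mean of 286 ± 5.81 CPM with the ASO to 309 ± 10.7 CPM with RfxCas13d and mATXN2 (SD, n = 3). Its only call was in the latter group, at 299, 320.1 and 309 CPM against 295, 283 and 293 CPM in untransfected cells (0.09 ± 0.03, adjusted p = 0.0183). It was lost without mATXN2 replicates 2 or 3 of RfxCas13d (adjusted p = 0.165 and 0.0529) or untransfected replicate 2 (adjusted p = 0.128). Srxn1 lay between 20.4 and 26.4 CPM in the 21 samples without the ASO. The ASO samples were at 28.6, 26.0 and 24.1 CPM against 24.4, 20.7 and 22.1 CPM in untransfected cells, a rise of 0.23 ± 0.08 (adjusted p = 0.0252) in groups that overlapped. That call was lost without ASO replicate 1 (adjusted p = 0.144) or untransfected replicates 2 or 3 (adjusted p = 0.156 and 0.0597).

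Nqo1, which reduces quinones so that they do not cycle with oxygen, was the member with the fewest counts. Its group means lay between 12.1 and 13.3 CPM in the 7 groups without the ASO, each neighbour overlapping the next. The ASO samples were at 14.9, 14.4 and 14.8 CPM against 12.4, 13.4 and 10.8 CPM in untransfected cells, a rise of 0.26 ± 0.09 (adjusted p = 0.0234). The call was lost without untransfected replicate 3 (adjusted p = 0.133) or ASO replicates 1 or 3 (adjusted p = 0.0534 and 0.05001).

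The regulators moved little with transfection. Nfe2l2 was at 35.6, 37.3 and 35.6 CPM in untransfected cells and rose with the ASO alone, to 38.3, 43.05 and 42.4 CPM (0.19 ± 0.05, adjusted p = 0.00379). Its level with RfxCas13d was 35.3 ± 2.17 CPM with NTG and 36.0 ± 0.827 CPM with mATXN2, where the log2 fold changes were -0.03 (95% interval -0.15 to 0.08) and -0.01 (-0.12 to 0.10). It was 39.1 to 39.2 CPM in the NTG samples of DiCas7-11 and 38.4 to 40.0 CPM in its mATXN2 samples, above all untransfected samples, but neither value of 0.11 passed the test (adjusted p = 0.143 and 0.128). The RfxCas13d groups, with the higher Hmox1 of the transfected cells, had the lowest group means of Nfe2l2, and the DiCas7-11 groups, with the lower Hmox1, the highest after the ASO, but Nfe2l2 did not pass the test between DiCas7-11 and RfxCas13d in either arm (adjusted p = 0.145 and 0.195). Keap1 was at 44.3, 49.0 and 48.3 CPM in untransfected cells and at 54.5, 54.0 and 54.1 CPM with the ASO (0.20 ± 0.05, adjusted p = 0.00217). It also rose with DiCas7-11 and mATXN2, at 53.9, 54.4 and 52.3 CPM (0.18 ± 0.05, adjusted p = 0.0107), a call that was lost without untransfected replicate 1 (adjusted p = 0.0831).

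The effectors were then compared directly, first in the NTG arms and then, in a comparison added after the data were seen, in the mATXN2 arms, which share no sample with the former. DiCas7-11 had 2 members below RfxCas13d in either case, the same 2 genes, while 3.39% of all genes differed in the NTG arms and 5.98% in the mATXN2 arms. Hmox1 was lower, with a log2 fold change of -0.26 ± 0.05 in the NTG arms (95% interval -0.36 to -0.16, adjusted p = 0.00208) and of -0.24 ± 0.05 in the mATXN2 arms (-0.34 to -0.14, adjusted p = 0.00204), with no overlap in either, and these calls held without any single library. Of all genes, 17% did not overlap in the NTG arms and 25.5% in the mATXN2 arms. Slc7a11 was lower too, with a log2 fold change of -0.28 ± 0.06 in the NTG arms (adjusted p = 0.0115), with no overlap of samples. This call was lost without RfxCas13d NTG replicates 1 or 3 (adjusted p = 0.0541 and 0.0534). In the mATXN2 arms the value for Slc7a11 was -0.22 ± 0.06 (adjusted p = 0.0384), which was lost without RfxCas13d replicates 1, 2 or 3 (adjusted p = 0.186, 0.0524 and 0.0838) or DiCas7-11 replicates 2 or 3 (adjusted p = 0.120 and 0.221). The glutamate-cysteine ligase subunits, which rose with each effector, did not separate the effectors: for Gclc the intervals of the difference were -0.06 to 0.09 and -0.09 to 0.06.

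Levels of Hmox1 with HiFi-RfxCas13d had means between those of the other effectors in both arms. No member differed between HiFi-RfxCas13d and RfxCas13d by edgeR in the NTG arms (0 of 10, with 0.619% of all genes called) or the mATXN2 arms (0 of 10, with 0.935% called), and DESeq2 and limma-trend likewise called 0. At an unadjusted p under 0.05 there were 1 and 3 members. The log2 fold change of Hmox1 with HiFi-RfxCas13d was -0.12 in the NTG arms (95% interval -0.22 to -0.02, adjusted p = 0.375) and -0.14 in the mATXN2 arms (-0.24 to -0.04, adjusted p = 0.156), with no overlap of samples in either. In these comparisons 15.7% and 20.3% of all genes did not overlap. Against DiCas7-11, HiFi-RfxCas13d had no member past the threshold in the NTG arms by any of the 3 tools (0 of 10, with 0.705% of all genes called and 2 members at an unadjusted p under 0.05), where Slc7a11 was 0.21 higher (adjusted p = 0.136). In the mATXN2 arms 1 member, Slc7a11, was higher with HiFi-RfxCas13d by 0.27 ± 0.06 (adjusted p = 0.00992), with 4.47% of all genes called. This call was lost without DiCas7-11 mATXN2 replicate 3 (adjusted p = 0.0879).

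The 43 further pathway genes did not move in 1 direction. Against untransfected cells, 4 rose and 5 fell with RfxCas13d and NTG, while 5.6% of all genes rose and 5.66% fell. With HiFi-RfxCas13d and NTG, 4 rose and 7 fell (10.3% and 10.6% of all genes). With DiCas7-11 and NTG, 3 rose and 10 fell (11.1% and 10.8%), and with the ASO 8 rose and 14 fell (21% and 21.7%). With mATXN2 the counts were 9 and 4 for RfxCas13d (5.98% and 6.03%). They were 4 and 7 for HiFi-RfxCas13d (11.3% and 10.9%) and 3 and 14 for DiCas7-11 (12.5% and 12.8%). Their median log2 fold changes were -0.01, -0.03 and -0.06 for the NTG arms of RfxCas13d, HiFi-RfxCas13d and DiCas7-11. They were 0.02, -0.02 and -0.11 for the mATXN2 arms in the same order, and -0.06 for the ASO.

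Among the regulators and partners of NRF2, Sqstm1 rose with RfxCas13d (0.18 with NTG and 0.22 with mATXN2), with HiFi-RfxCas13d and NTG (0.10, adjusted p = 0.0109) and with the ASO (0.38 ± 0.03, adjusted p = 1.09e-11). Bach1, the repressor that occupies AREs at Hmox1, rose by 0.40 ± 0.07 with the ASO (adjusted p = 3.19e-05), and the small MAF gene Maff fell by 0.37 (adjusted p = 6.99e-04). Cul3, the scaffold of the ligase that KEAP1 serves, rose by 0.17 with HiFi-RfxCas13d and NTG (adjusted p = 4.10e-04), by 0.18 with DiCas7-11 and NTG (adjusted p = 2.92e-04) and by 0.22 with the ASO (adjusted p = 4.29e-06). Of 9 tested genes of glutathione use, none rose with any NTG arm or the ASO. With NTG, 2 fell with RfxCas13d, 3 with HiFi-RfxCas13d and 2 with DiCas7-11, while 5.66%, 10.6% and 10.8% of all genes fell. With the ASO 3 fell, while 21.7% of all genes fell. With mATXN2, 1 rose and 1 fell with RfxCas13d, and 3 fell with HiFi-RfxCas13d and 4 with DiCas7-11. There 6.03%, 10.9% and 12.8% of all genes fell. Gss, glutathione synthetase, fell by 0.35 with RfxCas13d and NTG (adjusted p = 0.0110), by 0.26 with HiFi-RfxCas13d and NTG (adjusted p = 0.0362) and by 0.53 with the ASO (adjusted p = 1.23e-05). With DiCas7-11 and NTG it did not pass the test (-0.19, adjusted p = 0.133). Gstm5, a glutathione transferase, fell by 0.20, 0.35 and 0.26 in the NTG arms of RfxCas13d, HiFi-RfxCas13d and DiCas7-11 (adjusted p = 0.0149, 2.67e-05 and 7.59e-04). Gstm genes are close paralogs whose reads could be divided among them.

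In the NADPH supply, Pgd, an enzyme of the pentose phosphate pathway, rose by 0.16, 0.17 and 0.15 in the NTG arms of RfxCas13d, HiFi-RfxCas13d and DiCas7-11 (adjusted p = 0.00301, 8.58e-04 and 0.00244). G6pdx, which starts that pathway, rose by 0.13 with RfxCas13d and NTG (adjusted p = 0.00515). Of the 6 genes of this role, however, 2 fell with RfxCas13d and NTG, 2 with HiFi-RfxCas13d and NTG, 3 with DiCas7-11 and NTG and 3 with the ASO. In these groups 5.66%, 10.6%, 10.8% and 21.7% of all genes fell. Tkt, transketolase of the same pathway, fell by 0.10, 0.10 and 0.13 in the NTG arms in that order (adjusted p = 0.00312, 0.00105 and 7.43e-05) and by 0.21 with the ASO (adjusted p = 3.01e-09). Idh1, an isocitrate dehydrogenase that yields NADPH, fell by 0.11, 0.13 and 0.15 in the NTG arms (adjusted p = 0.0300, 0.00425 and 0.00156). Slc40a1, the iron exporter ferroportin, fell by 0.34 with DiCas7-11 and NTG (adjusted p = 9.87e-05) and by 0.19 with HiFi-RfxCas13d and NTG (adjusted p = 0.0181). Txnip went opposite ways, falling by 0.30 with RfxCas13d and NTG (adjusted p = 0.00151) and rising by 0.52 ± 0.05 with the ASO (adjusted p = 7.87e-09). It also fell by 0.19 with DiCas7-11 and NTG (adjusted p = 0.0200), and did not pass the test with HiFi-RfxCas13d and NTG (-0.06, adjusted p = 0.549). Osgin1, an oxidative stress response gene, was 0.99 ± 0.36 higher with the ASO (adjusted p = 0.0283), at 1.16 CPM against 0.572 CPM.

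In the direct comparison of DiCas7-11 with RfxCas13d, 4 of the 43 genes fell in the NTG arms and 11 in the mATXN2 arms, and none rose, while 2.29% and 3.32% of all genes fell and 1.1% and 2.66% rose. The log2 fold change of Sqstm1 was -0.23 ± 0.03 in the NTG arms (adjusted p = 1.15e-05) and -0.25 ± 0.03 in the mATXN2 arms (adjusted p = 1.92e-06). That of G6pdx was -0.17 and -0.16 (adjusted p = 0.00184 and 0.00171).

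**Figure D4:**
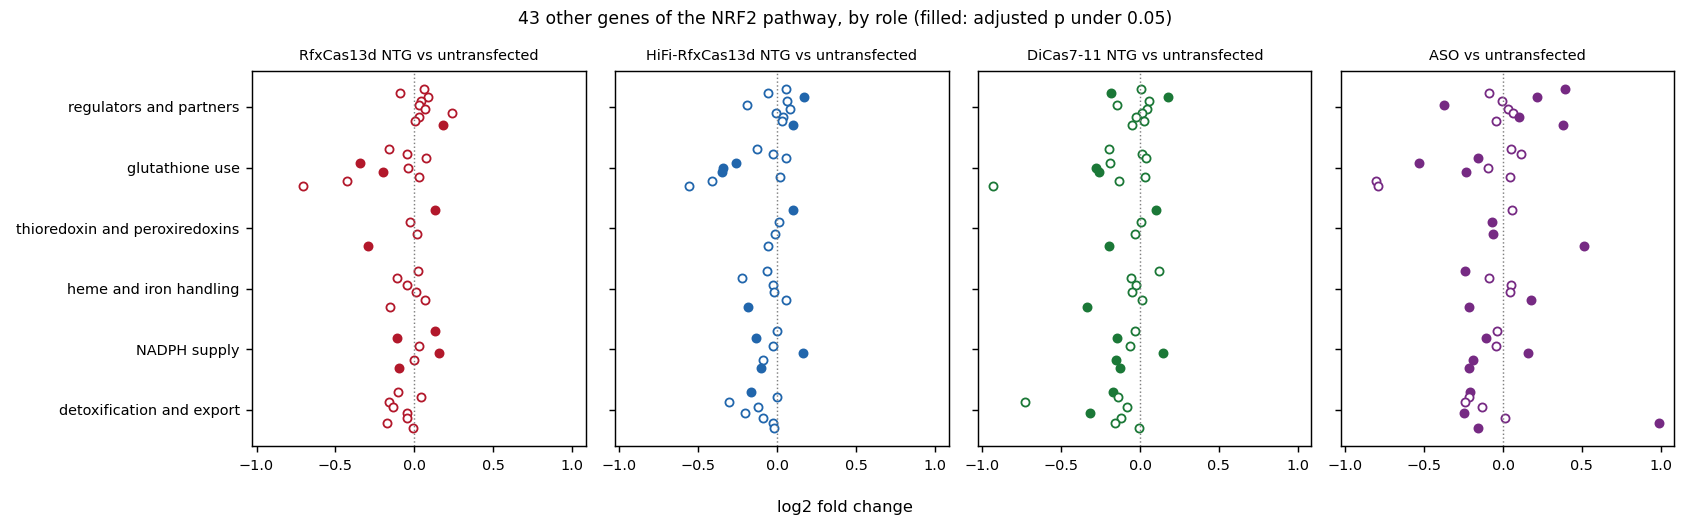
log2 fold change against untransfected cells (horizontal axis) of the 43 further pathway genes tested, in 6 roles, for the NTG arm of each effector and the ASO. Each point is a gene, filled where its adjusted p was under 0.05, and filled points lie on both sides of 0 in each panel, and those of glutathione use lie below 0.

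Over the 24 samples, the 3 genes whose log2 level followed that of Hmox1 most closely, of 10912 genes with a mean of at least 50 counts, were Sqstm1 (Pearson's r = 0.928), Ankfy1, an endosomal protein (0.880), and Map3k2, a MAP kinase kinase kinase (0.842). These points share libraries and the 8 groups, and no test was made. Sqstm1 was at 362, 353 and 351 CPM in untransfected cells, at 414, 397 and 400.02 CPM with RfxCas13d and NTG, at 398, 376 and 373 CPM with HiFi-RfxCas13d and NTG, at 361, 336 and 335 CPM with DiCas7-11 and NTG and at 463, 460.3 and 464 CPM with the ASO, the same order of groups as Hmox1 apart from the DiCas7-11 samples, which lay at or below untransfected cells. Of the other members, Gclm (0.625), Gclc (0.619) and Slc7a11 (0.599) came next to Hmox1, followed by Nqo1 (0.513), Srxn1 (0.502) and Keap1 (0.434). In that order, 97.3%, 97.1%, 96.4%, 92.2%, 91.5% and 87.5% of the 10912 genes had a lower r, so many other genes followed Hmox1 more closely. Nfe2l2 (0.132), Gsr (0.016) and Txnrd1 (-0.099) did not follow it.

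**Figure D5:**
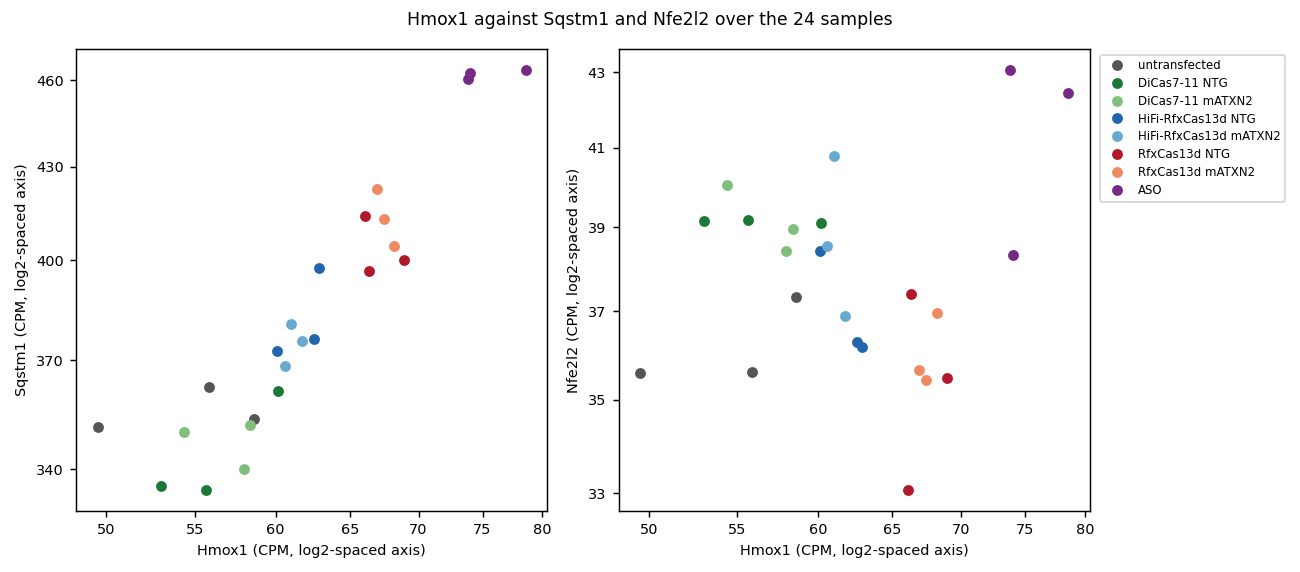
Level of Sqstm1 (left) and Nfe2l2 (right) against that of Hmox1 in the 24 samples, in CPM on log2-spaced axes, coloured by group. Sqstm1 rises along with Hmox1 (r = 0.928), with the ASO samples at the upper end, while Nfe2l2 does not (r = 0.132). Nfe2l2 lies at 33.1 to 37.4 CPM with RfxCas13d and at 38.4 to 40.0 CPM with DiCas7-11. With HiFi-RfxCas13d it lies at 36.2 to 40.8 CPM, overlapping both.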

How the data were processed

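RNA-seq data from 24 samples of Neuro2A cells were used, grouped by their labels. The authors quantified reads with Salmon (version 1.5.2) against the mouse transcriptome (GRCm39), correcting for GC and sequence bias, and derived gene values through the lengthScaledTPM option of tximport, which keeps reads that map to several places. The deposited values are expected counts, estimated for each gene with a length scaling but without library size normalization, and they were rounded for testing.

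A gene was kept where 3 or more samples had at least 0.5 CPM, TMM normalization was applied, and edgeR's quasi-likelihood test (version 4.0.16 in R 4.3.3) was fitted to all 24 samples with group as the factor. Benjamini-Hochberg adjustment was made per comparison at a threshold of 0.05. P-values measure the spread between these samples. Sampling of counts and replicate spread both limit the precision. Alternatives were DESeq2 (version 1.42.0), limma-trend (version 3.58.1, prior count of 3, adjusted over 10 comparisons), other scaling and filters, only the groups compared, a replicate block, a coding length correction and leaving out each sample. Scripts were tested on simulated data.

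The members and the lists of other genes were chosen with earlier results of these data known. The rule for named genes was all 10 members, up to 6 called genes of each other list per comparison by size of change, Atxn2, and the 3 genes most like the member of widest range. Some genes named for 1 comparison are also given for other arms, but not for all of them. crRNA and ASO sequences were not used here, and Hmox1, Gclc and Gsr promoters were not analysed here.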

Additional observations from a re-analysis of the deposited data

Results flagged for a closer look

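Levels of Hmox1 and Slc7a11 differed between effectors by a test of the difference itself. Between DiCas7-11 and RfxCas13d, the log2 fold change in the NTG arms was -0.26 for Hmox1 and -0.28 for Slc7a11. In the mATXN2 arms it was -0.24 for Hmox1 and -0.22 for Slc7a11. Between HiFi-RfxCas13d and DiCas7-11, Slc7a11 differed by 0.27 in the mATXN2 arms.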

How the results depend on the processing

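Of the called log2 fold changes recomputed with all libraries, 372 kept their direction and stayed past the threshold and 8 lost the call. With a library left out, 182 stayed and 46 lost the call. None turned its direction. The calls lost were named beside their results, apart from Gsr for DiCas7-11 with NTG (adjusted p = 0.0812 with no filter and 0.138 with only the groups compared) and for HiFi-RfxCas13d with mATXN2 (0.0511 and 0.0716), Gclm for DiCas7-11 with NTG (0.0689 with only the groups compared), Nqo1 and Srxn1 with the ASO (0.0550 and 0.0649 by limma-trend), and Slc7a11 for DiCas7-11 against RfxCas13d in the mATXN2 arms (0.0541 with library size alone). The number of members called became 1 for mATXN2 against NTG with RfxCas13d, by limma-trend and by the coding length correction with the replicate block. It became 1 for DiCas7-11 NTG against untransfected cells with only the groups compared, 5 for DiCas7-11 mATXN2 against untransfected cells under the coding length correction with the replicate block, 1 for HiFi-RfxCas13d against DiCas7-11 in the NTG arms with no filter, and 1 for DiCas7-11 against RfxCas13d in the mATXN2 arms with library size alone. The cause was not tested. Leaving out single libraries gave 1 to 2 members for DiCas7-11 NTG, 3 to 4 for HiFi-RfxCas13d mATXN2, 2 to 4 for DiCas7-11 mATXN2 and 6 to 8 for the ASO against untransfected cells. It gave 1 to 2 for DiCas7-11 against RfxCas13d in either arm, and 0 to 1 for HiFi-RfxCas13d against DiCas7-11 in the mATXN2 arms. Replicate numbers were taken not to pair the samples, since deviations of same-numbered samples correlated by -0.16 to 0.23 and no comparison had every pair over 0.1. By its own number, 15 of 24 samples correlated best. With the replicate block the number of members called was the same in 18 of 19 comparisons, and 4 in place of 3 for DiCas7-11 mATXN2 against untransfected cells. Nqo1, with the fewest counts, had the widest intervals.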

Other observations

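Slc7a11 is shared with the ATF4 response, so 11 genes of that response, taken from a list of neighbouring stress genes, were read beside it. With DiCas7-11, 8 of the 11 fell and none rose against untransfected cells with NTG, and 7 fell and none rose with mATXN2, while 10.8% and 12.8% of all genes fell. Atf4 itself was among the genes that did not pass with NTG (-0.05, adjusted p = 0.139). Asns, asparagine synthetase, fell by 0.23 ± 0.02 with NTG (adjusted p = 1.71e-10) and by 0.32 ± 0.02 with mATXN2 (adjusted p = 1.47e-13). Ddit4, an inhibitor of mTORC1 signalling, fell by 0.38 ± 0.06 with NTG (adjusted p = 4.12e-05). With RfxCas13d and NTG, 1 of the 11 fell and none rose, while 5.66% of all genes fell. With the ASO, 2 rose and 7 fell, while 21% of all genes rose and 21.7% fell. Whether ATF4 bears on the level of Slc7a11 was not tested. Ddit3, which encodes the stress factor CHOP, rose by 0.77 ± 0.06 (adjusted p = 3.02e-11), from 30.6 to 52.1 CPM, and Trib3, a pseudokinase induced by CHOP and ATF4, rose by 0.27 ± 0.05 (adjusted p = 5.77e-05). Slc3a2, the partner subunit of SLC7A11 in the cystine antiporter, fell by 0.24 ± 0.03 (adjusted p = 4.62e-08).

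Of 5 heat shock genes listed, 3 passed the filter. Hsph1, a chaperone of the HSP110 family, rose by 0.22 ± 0.04 with DiCas7-11 and NTG (adjusted p = 1.02e-04) and by 0.20 ± 0.04 with HiFi-RfxCas13d and NTG (adjusted p = 3.38e-04). With mATXN2 it rose by 0.14 for RfxCas13d (adjusted p = 0.0143), 0.21 for HiFi-RfxCas13d (adjusted p = 1.41e-04) and 0.17 for DiCas7-11 (adjusted p = 0.00148). Dnajb1, an HSP40 co-chaperone, rose by 0.12 ± 0.04 with the ASO (adjusted p = 0.0114) and by 0.18 ± 0.04 with DiCas7-11 and mATXN2 (adjusted p = 0.00131). Bag3, a co-chaperone of HSP70, rose by 0.14 ± 0.03 with RfxCas13d and NTG (adjusted p = 0.00746). The 2 metallothionein genes listed did not pass the filter.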
